A study of Spinacia oleracea with 12 samples.

Results

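A set of 202 spinach (Spinacia oleracea) genes, of the 25495 in the deposited table, differed between the roots of PI175311 and Bloomsdale while their leaf levels lay close together. In 87 of them the level was higher in PI175311 roots, and in 115 it was lower. A gene belonged to the set when all 3 root libraries of one genotype lay above all 3 of the other, the higher root mean was at least 1 FPKM and at least 3 times the lower one, and both leaf means were at least 1 FPKM and within 1.5 fold of each other. FPKM are the fragments assigned to a gene, divided by its length in kilobases and by the library's total of fragments. Genes under 0.05 FPKM in all 3 roots of a genotype, and Spo21624, were left out. The rule used the values of all 12 libraries, so the root difference, the level leaves and the difference between the tissues are given below as descriptions of the chosen genes and support nothing by themselves.

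The study compared PI175311, an accession of the USDA collection labelled as high in oxalate, with the cultivar Bloomsdale, which served as its low-oxalate counterpart, to look for genes tied to oxalate content. RNA of roots and of leaf laminae came from plants aged 6 weeks, grown in a climate-controlled chamber. The 4 groups were PI175311 roots, Bloomsdale roots, PI175311 leaves and Bloomsdale leaves, with 3 libraries each. The study's methods name 3 independent plants, without saying whether roots and leaves came from the same ones. Fits over both tissues took all libraries as independent. The sample labels give nitrogen held at 200 ppm, whereas the methods of the study name a nutrient solution without nitrogen, and no group was labelled with a treatment. Each genotype was 1 line, so a difference between them covers everything in which these lines differ, oxalate content included.

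Roots take up water and mineral ions and live off sugars sent down by the shoot, while leaf laminae carry out photosynthesis and photorespiration. Photorespiration yields glyoxylate, one of the routes to oxalate. Oxalate is the anion of a small dicarboxylic acid that binds calcium, and spinach holds much of it as calcium oxalate crystals in leaf cells. In whole roots, fewer cells of a type and less RNA per cell cannot be told apart.

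The files gave gene IDs without names or positions, and 0 of the IDs were found among 39719 genes of the reference table used here (RefSeq), so the genes are named by ID, and no function, position or sequence is given for them. For the same reason the tissue labels were not checked against named marker genes. Library totals solved from the values ran between 18451262 and 25245734 fragments. The p-values and standard errors (SE) rest on the spread between the 3 plants of a group, pooled over the groups of a fit and moderated across genes. The SE of root minus leaf is therefore the same for both genotypes and does not show the spread of either alone. Exact tests of 3 libraries against 3 cannot go below p = 0.1. A library stood over 3 times above the next of its group in 0.325% to 3.69% of the genes tested, depending on the library, and the libraries that carry a result are named beside it.

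The rule was narrow. Roots that did not overlap, with a higher mean of at least 1 FPKM, were found for 7592 genes, of which 1612 were higher and 5980 were lower in PI175311. Among the 18197 genes tested in roots, 8.77% did not overlap with PI175311 higher and 32.3% with PI175311 lower. A root fold of at least 3 left 1946 genes, 536 higher and 1410 lower. In 1279 of these at least one leaf mean was under 1 FPKM. Of the remaining 667 genes, 398 differed by more than 1.5 fold in leaves in the same direction as in roots, 67 differed in the opposite direction, and 202 had leaf means within the window. Among all 10532 genes with such close leaf means and a root mean of at least 1 FPKM, the set made up 1.92%. Of the others, 8388 also had root means within 1.5 fold.

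The balance between the directions depended on how the libraries were scaled. Over all genes tested, the median log2 difference of PI175311 minus Bloomsdale was -0.23 in roots and -0.12 in leaves with FPKM as deposited, and 0.01 in roots after median-of-ratios scaling, which sets the median gene level. Applied to the rescaled values, the rule found 122 genes that were higher and 68 that were lower in PI175311 roots, and 73 and 55 of these were in the sets of 87 and 115. Neither direction can therefore be called the more frequent one.

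**Figure D1:**
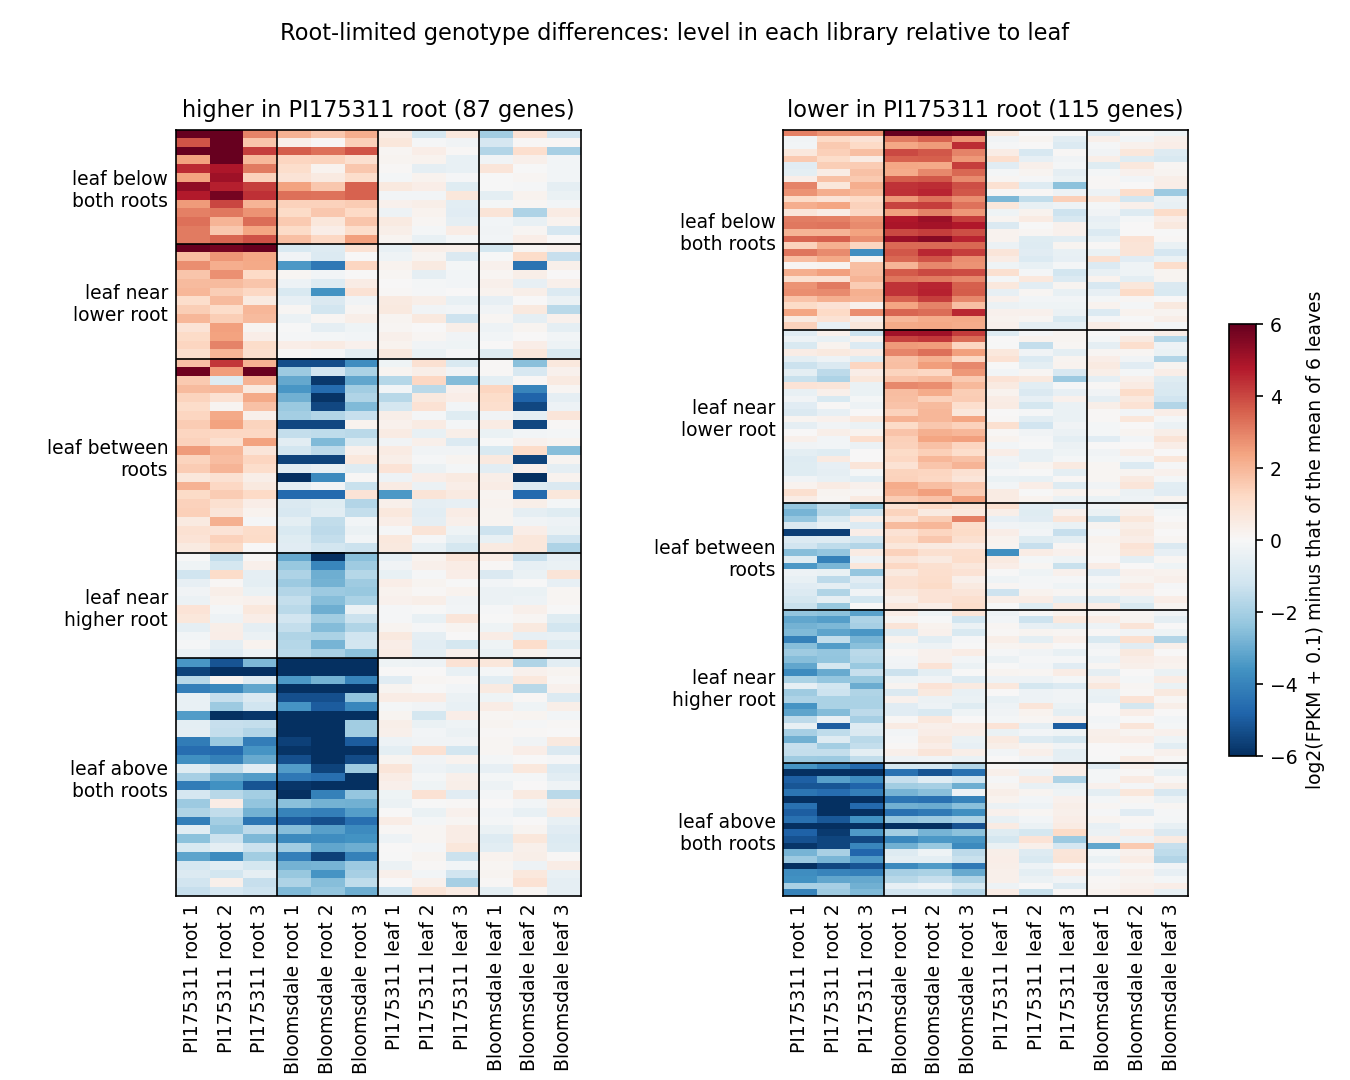
Levels of the 202 genes in each of the 12 libraries, as log2(FPKM + 0.1) minus that of the mean of the 6 leaf libraries, with colours ending at 6 on either side. Columns run PI175311 roots, Bloomsdale roots, PI175311 leaves and Bloomsdale leaves with 3 libraries each, and rows are genes, ordered by direction (87 higher, then 115 lower in PI175311 roots) and by where the leaf level lay beside the root levels. The leaf columns are pale in most rows by the rule, while the root columns run on both sides of the leaf level.

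The root differences were mostly moderate. Among the 87 genes higher in PI175311 roots, the fold of the root means ran between 3.02 and 530.4 with a median of 4.17, and it reached 10 in 12 genes. Among the 115 lower genes, the fold ran between 3.00 and 39.5 with a median of 3.68, and it reached 10 in 6 genes. Thus 37 of the 87 and 65 of the 115 lay under 4 fold, close to the threshold. The distance between the nearest libraries of the genotypes was smaller than the fold of the means. The lowest library of the higher genotype was a median of 1.86 times the highest library of the other genotype for the 87 genes and 1.99 times for the 115 genes, and it was under 1.2 times in 8 and 4 genes.

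The genes spanned a wide range of levels. The 87 genes had a median of 23.3 FPKM in PI175311 roots (1.06 to 1833), against 3.35 FPKM in Bloomsdale roots (0.0667 to 265). In leaves their medians were 10.3 FPKM in PI175311 and 8.83 FPKM in Bloomsdale. The 115 genes had a median of 3.10 FPKM in PI175311 roots (0.0823 to 99.7), against 11.9 FPKM in Bloomsdale roots (1.08 to 311), with leaf medians of 4.09 and 4.95 FPKM in PI175311 and Bloomsdale. Over the 19549 genes tested in all libraries together, the medians were 9.46 FPKM in PI175311 roots, 10.9 FPKM in Bloomsdale roots, 6.71 FPKM in PI175311 leaves and 7.39 FPKM in Bloomsdale leaves. In PI175311 roots the median of the 87 genes lay above that of all genes tested. The median of the 115 genes lay near it in Bloomsdale roots and below it in PI175311 roots. The rule itself set minimum levels and the root fold, and the genes tested include some under these minimums, so these comparisons only describe the set.

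The largest root difference belonged to Spo12328. It had 13.4, 75.9 and 16.8 FPKM in PI175311 roots, against 0, 0 and 0.20 FPKM in Bloomsdale roots. The leaves held 3.18, 7.29 and 2.05 FPKM in PI175311 and 4.08, 0.602 and 6.11 FPKM in Bloomsdale. The gene was thus read in the leaves of both genotypes and in the roots of PI175311, and only 4 fragments of it were seen over the 3 Bloomsdale roots (95% Poisson interval 1.09 to 10.2, which covers counting error only), against 1714 over the 3 PI175311 roots. The fold of the means, 530.4, rests on those 4 fragments.

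Spo14730 came next. It had 78.6, 7.88 and 83.8 FPKM in PI175311 roots and 0.204, 0.532 and 0.268 FPKM in Bloomsdale roots, a fold of 169.7. Its leaves held between 1.103 and 1.64 FPKM in PI175311 and between 0.619 and 1.55 FPKM in Bloomsdale. PI175311 root replicate 2 lay far below the other 2 and still above every Bloomsdale root.

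On the other side, Spo26039 showed the largest fold, 39.5. It had 2.02, 4.02 and 1.30 FPKM in PI175311 roots, against 111, 116 and 63.2 FPKM in Bloomsdale roots. The leaves held 1.90, 3.14 and 3.75 FPKM in PI175311 and 3.37, 3.57 and 4.24 FPKM in Bloomsdale. The roots of PI175311 therefore stood at the leaf level, and the Bloomsdale roots alone stood far above it.

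Spo23405 had the same arrangement at a higher leaf level. It had 11.1, 9.84 and 15.9 FPKM in PI175311 roots and 228, 262 and 138 FPKM in Bloomsdale roots, a fold of 17.0. The leaves held 14.0, 16.0 and 15.2 FPKM in PI175311, against 12.4, 19.8 and 4.03 FPKM in Bloomsdale. The other 9 libraries lay between 4.03 and 19.8 FPKM, and only the 3 Bloomsdale roots left that range.

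**Figure D2:**
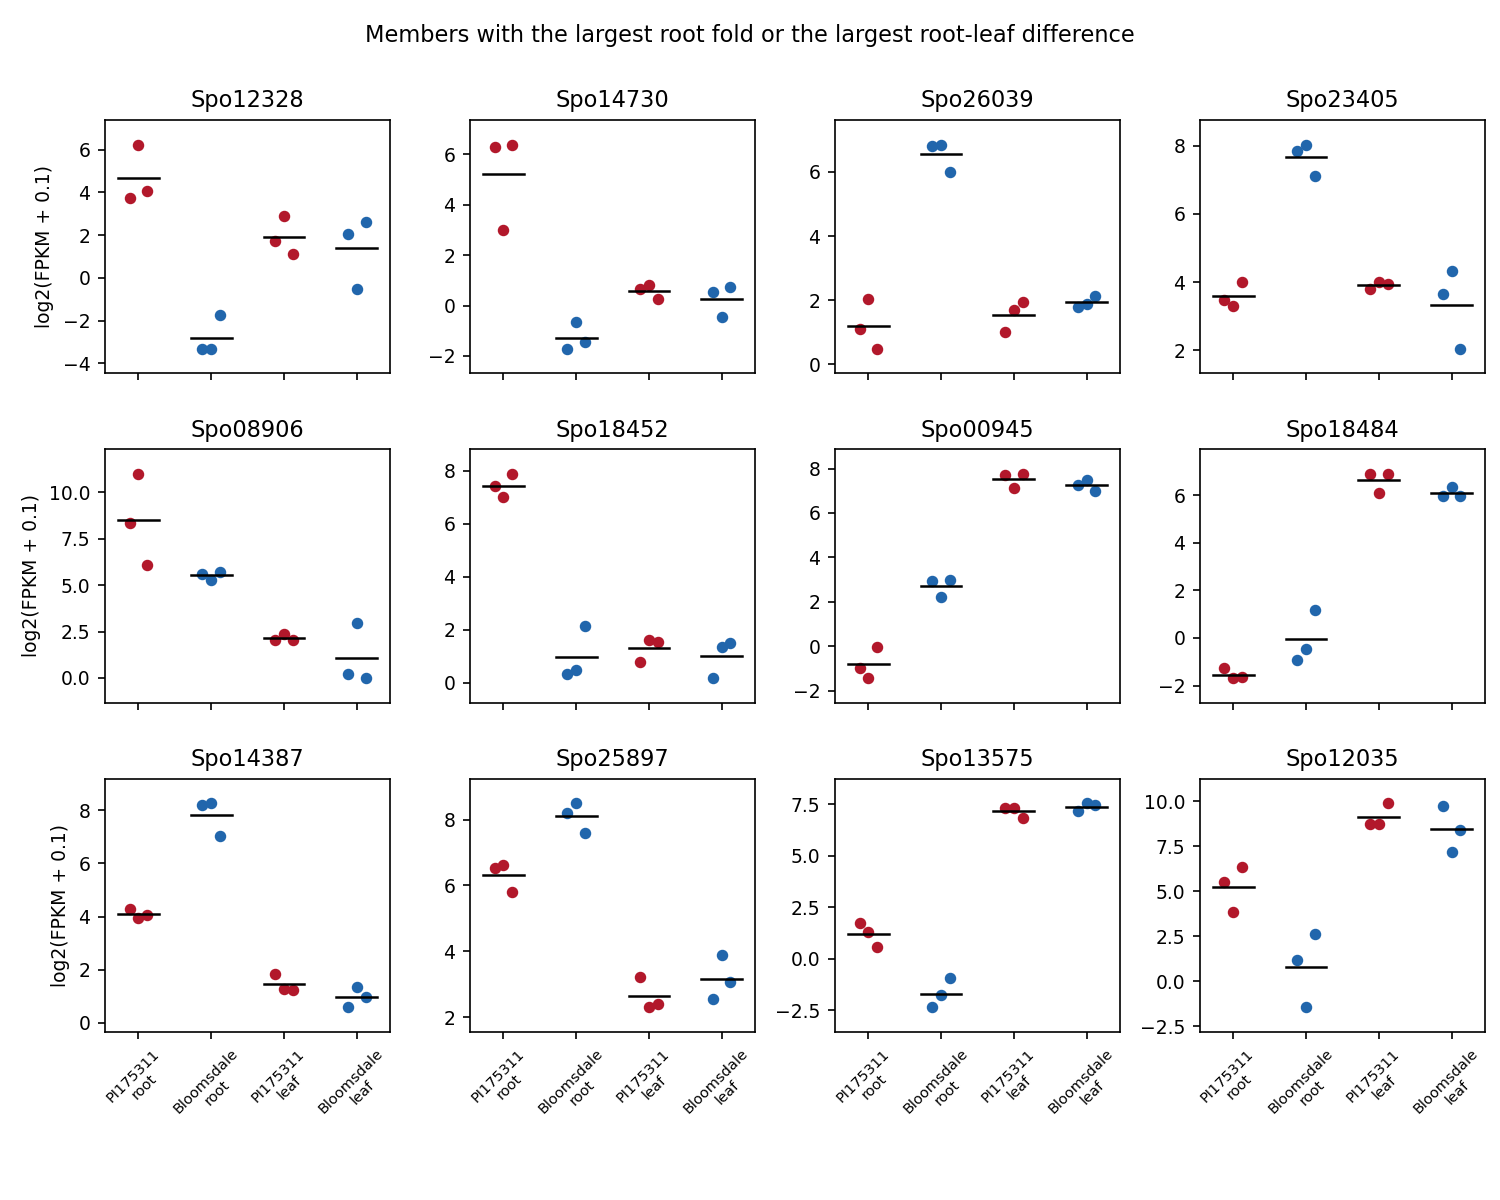
Level of 12 named genes, as log2(FPKM + 0.1), in the 4 groups, in the order PI175311 root, Bloomsdale root, PI175311 leaf and Bloomsdale leaf, with a point for each of the 3 libraries and a line at the mean of the log2 values. The root points of the genotypes stand apart in every panel by the rule, and the leaf level lies below, near, between or above them depending on the gene.

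Fitted across all genes with limma on log2(FPKM + 0.1), adjusted p under 0.05 was reached in roots by 47 of the 87 genes, upwards in PI175311, beside 2.93% of the 18197 genes tested in roots. It was reached downwards by 74 of the 115 genes, beside 9.70% of the genes tested. Since the rule used this contrast, these counts only describe the set, and 85 of the 87 and 110 of the 115 reached the 1 FPKM in 3 of the 6 root libraries that a test required. Without Bloomsdale root replicate 2 the calls dropped to 3 of the 87 and 11 of the 115, and without Bloomsdale root replicate 1 to 3 and 13. Over all genes the calls dropped likewise, to 97 higher and 42 lower without replicate 2 and to 100 and 54 without replicate 1, in place of 534 and 1765. Leaving out PI175311 root replicate 1 or Bloomsdale root replicate 3 left 9 and 27 of the 87 called.

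In leaves, limma called 0 of the 201 genes tested in either direction, with 1 higher and 2 lower at an unadjusted p under 0.05. Limma-voom also called 0, with 0 higher and 3 lower at an unadjusted p under 0.05. This stands beside 4.04% called higher and 6.08% called lower of all 16764 genes tested in leaves. The leaf libraries of the genotypes overlapped in 86 of the 87 and in 103 of the 115 genes, and those of 33.2% of all genes tested did not overlap. Within the leaf window, the PI175311 leaf mean was the higher one in 57 of the 87 genes (65.5%), beside 39.6% of all genes tested in leaves. It was the lower one in 70 of the 115 genes (60.9%), beside 60.4% of all genes tested, a share at the background. The median fold between leaf means was 1.233 for the 87 genes and 1.248 for the 115 genes. The contrast of the root difference with the leaf difference, with both tissues in one fit, was called for 15 of the 87 genes upwards (0.767% of the 19549 genes tested) and for 22 of the 115 genes downwards (1.49%), and the remaining genes did not pass despite the rule. Leaving out 1 library gave as few as 1 and 8 calls, without Bloomsdale root replicate 2, when 28 and 46 genes of all were called, and limma-voom called 5 of the 87, with 46 of all genes called upwards.

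The rule did not fix where the leaf level stood beside the roots, but it was not neutral. It asked for leaf means of at least 1 FPKM and set no such minimum for the lower root. This favours leaves above a low root, so the counts of the classes are descriptions. In 13 of the 87 genes higher in PI175311 roots, the mean of the 6 leaves lay more than 1.5 fold below both root means, and in 13 it lay within 1.5 fold of the Bloomsdale root mean. In 22 it lay between the root means, outside both windows. In 12 it lay within 1.5 fold of the PI175311 root mean, and in 27, the most frequent class with 31.0%, it lay above both.

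For the 115 genes lower in PI175311 roots, the leaf level lay below both root means in 30 (26.1%), near the PI175311 root mean in 26 and between the root means in 16. It lay near the Bloomsdale root mean in 23 and above both in 20. All 5 arrangements were thus found in both directions. Of the 8388 genes with level leaves and level roots, the root stood over 1.5 times the leaf in 53.6%, within 1.5 fold of it in 35.8% and below it in 10.6%. These genes have no root mean far below the other by choice, so their shares are no like background for the classes.

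**Figure D3:**
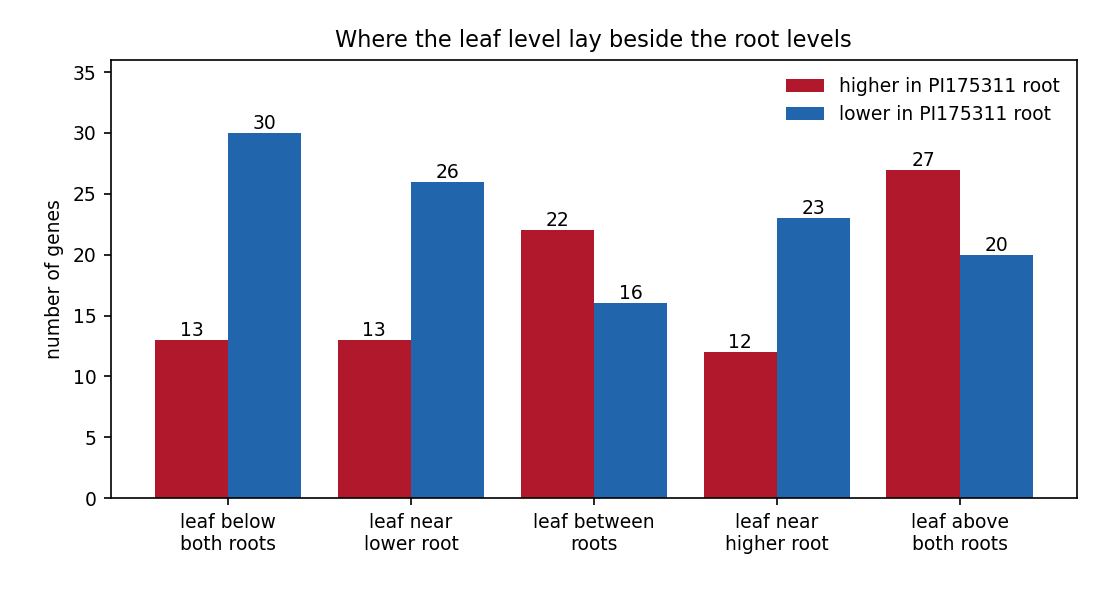
Number of genes by where the mean of the 6 leaf libraries lay beside the lower and the higher root mean (below both, near the lower, between, near the higher, above both, with a window of 1.5 fold), for the 87 genes higher and the 115 genes lower in PI175311 roots. The bars of the 87 genes are highest for leaves above both roots (27), and those of the 115 genes for leaves below both roots (30), which median-of-ratios scaling turned into 21 against 33 above both.

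These classes had different levels. The 27 genes higher in PI175311 roots with leaves above both roots had medians of 7.65 FPKM in PI175311 roots and 1.32 FPKM in Bloomsdale roots, under leaf medians of 58.2 FPKM in PI175311 and 54.5 FPKM in Bloomsdale. They were genes of high leaf level whose low root level differed. The 13 with leaves below both roots had the reverse makeup, with 58.8 FPKM in PI175311 roots, 7.33 FPKM in Bloomsdale roots, and 3.26 and 2.81 FPKM in PI175311 and Bloomsdale leaves. Among the 115, the 30 genes with leaves below both roots had medians of 9.34 FPKM in PI175311 roots, 31.6 FPKM in Bloomsdale roots, 2.21 FPKM in PI175311 leaves and 2.60 FPKM in Bloomsdale leaves. The 20 with leaves above both had 0.784 FPKM in PI175311 roots and 3.80 FPKM in Bloomsdale roots under leaf medians of 21.9 and 23.4 FPKM.

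The size of some classes moved with the scaling. After median-of-ratios scaling, genes higher in PI175311 roots had leaves below both roots in 8 and near the lower root in 6 cases, and genes lower in PI175311 roots had leaves above both in 33 and below both in 21, so that their most frequent class was another one than with FPKM as deposited. With deposited FPKM the median gene had a root level above its leaf level, with a log2 difference of root minus leaf of 0.64 in PI175311 and 0.70 in Bloomsdale, and after the scaling these medians were 0.10 and 0.06.

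Comparing root with leaf inside each genotype, limma called 30 of the 87 genes higher in root and 17 lower in root in PI175311, beside 47.5% and 15.9% of the 19549 genes tested. In Bloomsdale the same genes were called higher in root in 9 and lower in root in 45 cases, beside 50.0% and 14.6%. For the 115 genes, PI175311 roots were called above leaves in 22 and below in 46, and Bloomsdale roots above leaves in 62 and below in 17. The genotypes shared the direction of the call in 26 of the 87 genes (9 above and 17 below) and in 39 of the 115 (22 above and 17 below), which are 29.9% and 33.9%, beside 51.6% of all genes tested (39.6% above and 12% below). After median-of-ratios scaling, the shares of all genes called in PI175311 were 25.4% higher and 23.3% lower in root, with 21 and 22 of the 87 and 14 and 58 of the 115. In Bloomsdale they were then 25.5% and 22.7%, with 4 and 48 of the 87 and 46 and 25 of the 115.

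Relative to the median gene, the 87 genes stood slightly above it in PI175311 and well below it in Bloomsdale. Their median log2 difference of root minus leaf was 0.89 in PI175311, against 0.64 over all genes, and -1.69 in Bloomsdale, against 0.70. For the 115 genes the medians were -0.53 in PI175311 and 1.02 in Bloomsdale. After median-of-ratios scaling, the 87 genes had 0.36 in PI175311, against 0.10 over all genes, and -2.29 in Bloomsdale, against 0.06. The 115 genes then had -1.06 and 0.41. In both scalings the 87 genes departed from the median gene mainly in Bloomsdale and the 115 genes mainly in PI175311, that is, in the genotype whose roots were the lower ones. The rule favours this, since it asks for leaf means of at least 1 FPKM and sets no such minimum for the lower root. All genes tested also include genes with leaf means under 1 FPKM, which the rule leaves out. These medians are therefore descriptions only.

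**Figure D4:**
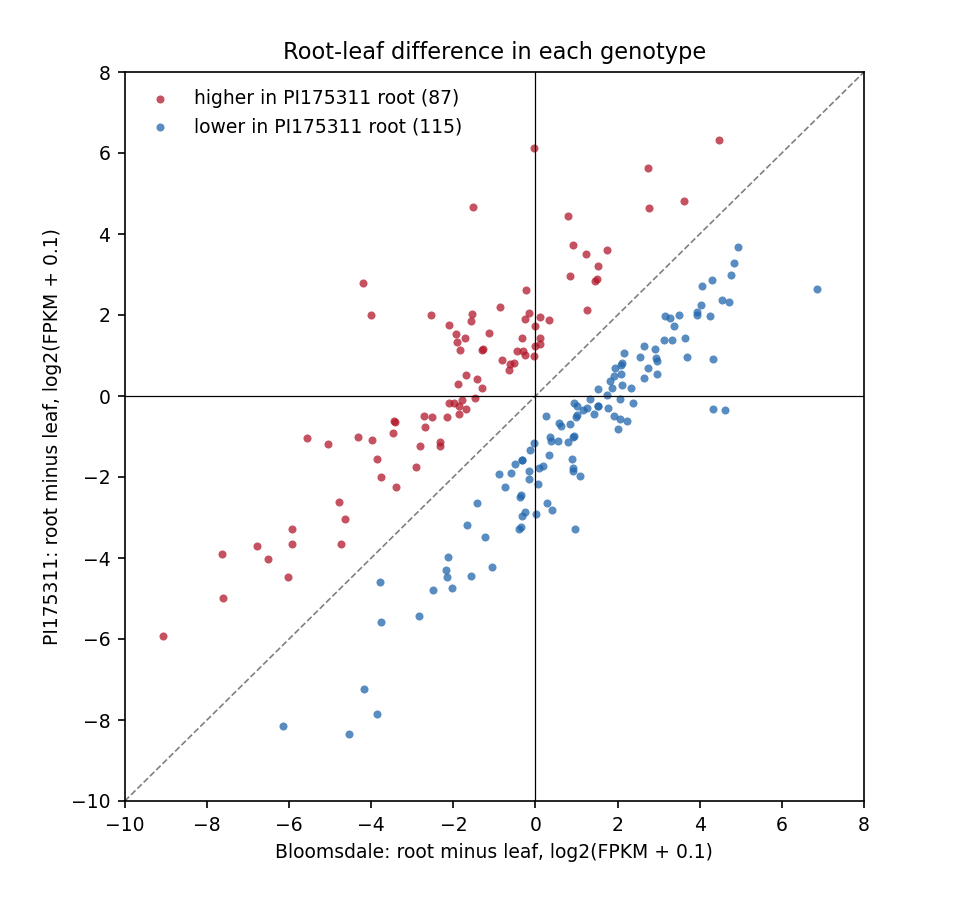
Log2 difference of root minus leaf in PI175311 (vertical axis) and in Bloomsdale (horizontal axis) for the 202 genes, on the log2(FPKM + 0.1) scale. Points above the dashed diagonal are the 87 genes higher in PI175311 roots and points below it the 115 lower ones, by the rule, and both groups stretch from genes far below to genes far above the leaf level.

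Among the genes with the largest differences of root minus leaf, Spo18452 stood far above its leaf level in PI175311 roots and not in Bloomsdale roots. It had 172, 129 and 237 FPKM in PI175311 roots, against 1.16, 1.31 and 4.28 FPKM in Bloomsdale roots. The leaves held 1.63, 2.95 and 2.82 FPKM in PI175311 and 1.03, 2.46 and 2.76 FPKM in Bloomsdale. The log2 difference of root minus leaf was 6.13 ± 0.51 (SE) in PI175311 and -0.03 ± 0.51 in Bloomsdale. Bloomsdale roots thus stood at the level of the leaves.

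Spo14387 stood above the leaf level in the roots of both genotypes, with the higher level in Bloomsdale. It had 19.5, 15.3 and 16.6 FPKM in PI175311 roots, against 295, 307 and 132 FPKM in Bloomsdale roots. The leaves held between 2.26 and 3.48 FPKM in PI175311 and between 1.40 and 2.44 FPKM in Bloomsdale. The difference of root minus leaf was 2.65 ± 0.33 (SE, log2) in PI175311 and 6.87 ± 0.33 in Bloomsdale. All roots lay above all leaves, and the PI175311 roots spread little.

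Spo25897 was a gene of high root level in both genotypes. It had 92.2, 98.5 and 55.3 FPKM in PI175311 roots and 295, 362 and 195 FPKM in Bloomsdale roots. Leaves ranged between 4.80 and 9.31 FPKM in PI175311 and between 5.75 and 14.6 FPKM in Bloomsdale. On the log2 scale, root minus leaf was 3.67 ± 0.39 (SE) in PI175311 and 4.94 ± 0.39 in Bloomsdale.

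Spo08906 had the largest log2 difference of root minus leaf in PI175311, and it rested on libraries that lay far apart. It had 325, 2038 and 68.9 FPKM in PI175311 roots, against 49.1, 38.1 and 52.5 FPKM in Bloomsdale roots. The leaves held 4.10, 4.98 and 4.01 FPKM in PI175311 and 1.05, 7.80 and 0.892 FPKM in Bloomsdale. Root minus leaf was 6.33 ± 1.05 (SE, log2) in PI175311 and 4.47 ± 1.05 in Bloomsdale. The highest PI175311 root, replicate 2, was many times the lowest, which lay just above the Bloomsdale roots.

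At the other end stood genes of leaves with traces in roots. Spo13575 had 3.21, 2.39 and 1.40 FPKM in PI175311 roots, against 0.0937, 0.192 and 0.426 FPKM in Bloomsdale roots. Its leaves held 159, 158 and 113 FPKM in PI175311 and 143, 188 and 174 FPKM in Bloomsdale. This gave a root minus leaf difference of -5.94 ± 0.36 (SE, log2) in PI175311 and -9.08 ± 0.36 in Bloomsdale. The 3 Bloomsdale roots together gave 8 fragments (95% Poisson interval 3.45 to 15.8) and the 3 PI175311 roots 74.

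Spo12035 was a gene of still higher leaf level. It had 45.9, 14.2 and 80.4 FPKM in PI175311 roots and 2.21, 0.266 and 6.11 FPKM in Bloomsdale roots. The leaves held 433, 421 and 955 FPKM in PI175311, against 843, 148 and 335 FPKM in Bloomsdale. In each genotype's roots, replicate 2 was the lowest and replicate 3 the highest. Root minus leaf was -3.89 ± 0.995 (SE, log2) in PI175311 and -7.64 ± 0.995 in Bloomsdale.

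Spo00945 carried the trace in the other genotype. It had 0.401, 0.2696 and 0.889 FPKM in PI175311 roots, against 7.56, 4.55 and 7.68 FPKM in Bloomsdale roots. Leaves held 209, 140.2 and 217 FPKM in PI175311 and 155, 176 and 127 FPKM in Bloomsdale. The root minus leaf difference was -8.35 ± 0.35 (SE, log2) in PI175311 and -4.54 ± 0.35 in Bloomsdale. The PI175311 roots gave 7 fragments in all (95% Poisson interval 2.81 to 14.4), against 92 in the Bloomsdale roots.

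Spo18484 had 0.312, 0.210 and 0.216 FPKM in PI175311 roots and 0.433, 0.620 and 2.18 FPKM in Bloomsdale roots. Its leaves held 118, 67.0 and 119 FPKM in PI175311, against 62.8, 80.1 and 62.8 FPKM in Bloomsdale. Root minus leaf was -8.16 ± 0.46 (SE, log2) in PI175311 and -6.16 ± 0.46 in Bloomsdale. The root fold of 4.38 turned on Bloomsdale root replicate 3, and the gene was too low for the test in roots.

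In 8 genes, chosen after their values were seen, limma called the root above the leaf in one genotype and below it in the other. The roots of PI175311 stood above and those of Bloomsdale below the leaves for Spo12328, Spo14439, Spo03808, Spo03986 and Spo07641. The reverse held for Spo20483, Spo00432 and Spo20746. Of all 19549 genes tested, 0.107% were called in the first way and 0.199% in the second. All 8 kept opposite signs after median-of-ratios scaling, but 0 of the 8 then passed in both genotypes, and 3 did after quantile normalization.

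Spo03808 was the most even of them. It had 4.40, 4.29 and 4.28 FPKM in PI175311 roots, against 0.574, 0.538 and 0.5005 FPKM in Bloomsdale roots. The leaves held 2.47, 1.26 and 2.27 FPKM in PI175311 and 1.28, 1.52 and 1.59 FPKM in Bloomsdale. The SD of the root libraries was 0.0687 FPKM in PI175311 and 0.0369 FPKM in Bloomsdale, so that the roots of each genotype were nearly alike and all leaves lay between them. Root minus leaf was 1.13 ± 0.29 (SE, log2) in PI175311 and -1.29 ± 0.29 in Bloomsdale.

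Spo03986 and Spo07641 showed the pattern at high levels. Spo03986 had 136, 103 and 282 FPKM in PI175311 roots, against 33.3, 8.28 and 27.4 FPKM in Bloomsdale roots, with leaves between 29.5 and 64.0 FPKM in PI175311 and between 52.1 and 63.3 FPKM in Bloomsdale. Spo07641 had 135, 99.9 and 67.0 FPKM in PI175311 roots and 28.2, 30.7 and 15.3 FPKM in Bloomsdale roots, with leaves between 35.3 and 62.9 FPKM in PI175311 and between 48.1 and 66.5 FPKM in Bloomsdale. Spo14439 had 26.6, 53.7 and 13.4 FPKM in PI175311 roots, against 2.58, 3.20 and 4.08 FPKM in Bloomsdale roots. In all 3 genes every PI175311 root lay above every Bloomsdale root, by the rule. The leaves of Spo14439, between 6.63 and 17.9 FPKM over both genotypes, overlapped the PI175311 roots. In Spo03986 the lowest PI175311 leaf, at 29.5 FPKM, lay below the highest Bloomsdale root, at 33.3 FPKM.

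In the reverse direction, Spo20483 had 0.781, 1.44 and 0.730 FPKM in PI175311 roots, against 7.93, 9.85 and 7.60 FPKM in Bloomsdale roots. Its leaves held 8.18, 2.65 and 2.97 FPKM in PI175311 and 3.68, 5.06 and 3.24 FPKM in Bloomsdale. The first PI175311 leaf lay among the Bloomsdale roots, and the other 5 leaves lay between the roots of the genotypes. Spo00432 had 7.94, 8.64 and 6.21 FPKM in PI175311 roots and 24.0, 28.8 and 18.6 FPKM in Bloomsdale roots, around leaves of 10.6 to 17.2 FPKM over both genotypes. Spo20746 had 2.66, 3.85 and 2.57 FPKM in PI175311 roots, against 6.85, 9.95 and 10.9 FPKM in Bloomsdale roots. All 6 leaves of Spo00432 lay between the roots of the genotypes.

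Genes of mainly leaf expression took a small share of the root libraries. Taking as such the 573 genes with a leaf mean of at least 10 FPKM and at least 20 times the root mean, they made up 0.272% to 0.569% of the FPKM sum in PI175311 roots, against 0.222% to 0.295% in Bloomsdale roots. In leaves they made up 17.0% to 26.6% in PI175311 and 32.8% to 41.3% in Bloomsdale. Of these genes, 12 belonged to the set, 6 in each direction. Among the other 561, the root mean of PI175311 was the higher one in 336, and the median log2 ratio of PI175311 to Bloomsdale roots was 0.23. The part of leaf RNA in the root levels of these 12 genes was not tested.

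The genes of the set had high coefficients of variation (SD over mean) among the plants of a group. In the 87 genes the median coefficient of variation was 44.1% in PI175311 roots and 42.9% in Bloomsdale roots, and in leaves it was 31.5% in PI175311 and 35.5% in Bloomsdale. In the 115 genes it was 37.7% in PI175311 roots, 26.9% in Bloomsdale roots, 31.5% in PI175311 leaves and 28.0% in Bloomsdale leaves. Over all genes tested it was 26.2% in PI175311 roots, 15.4% in Bloomsdale roots, 22.4% in PI175311 leaves and 25% in Bloomsdale leaves. These differences are descriptions, as a rule on means also takes in genes with a single very high or very low library.

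Single libraries carried part of the set. PI175311 root replicate 2 was over 3 times the next PI175311 root in 14 of the 87 genes (16.1%), beside 3.50% of all genes tested, by a median of 4.04 times and up to 13.0 times. Without it, 4 of the 14 still had a root fold of at least 3. Bloomsdale root replicate 3 was over 3 times the next Bloomsdale root in 12 of the 87 genes, beside 2.49% of all genes tested, and Bloomsdale root replicate 2 was the lowest by over 3 times in 11, beside 1.43%. In the 115 genes, PI175311 root replicate 3 was over 3 times the next in 10 (8.70%), beside 2.12%.

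**Figure D5:**
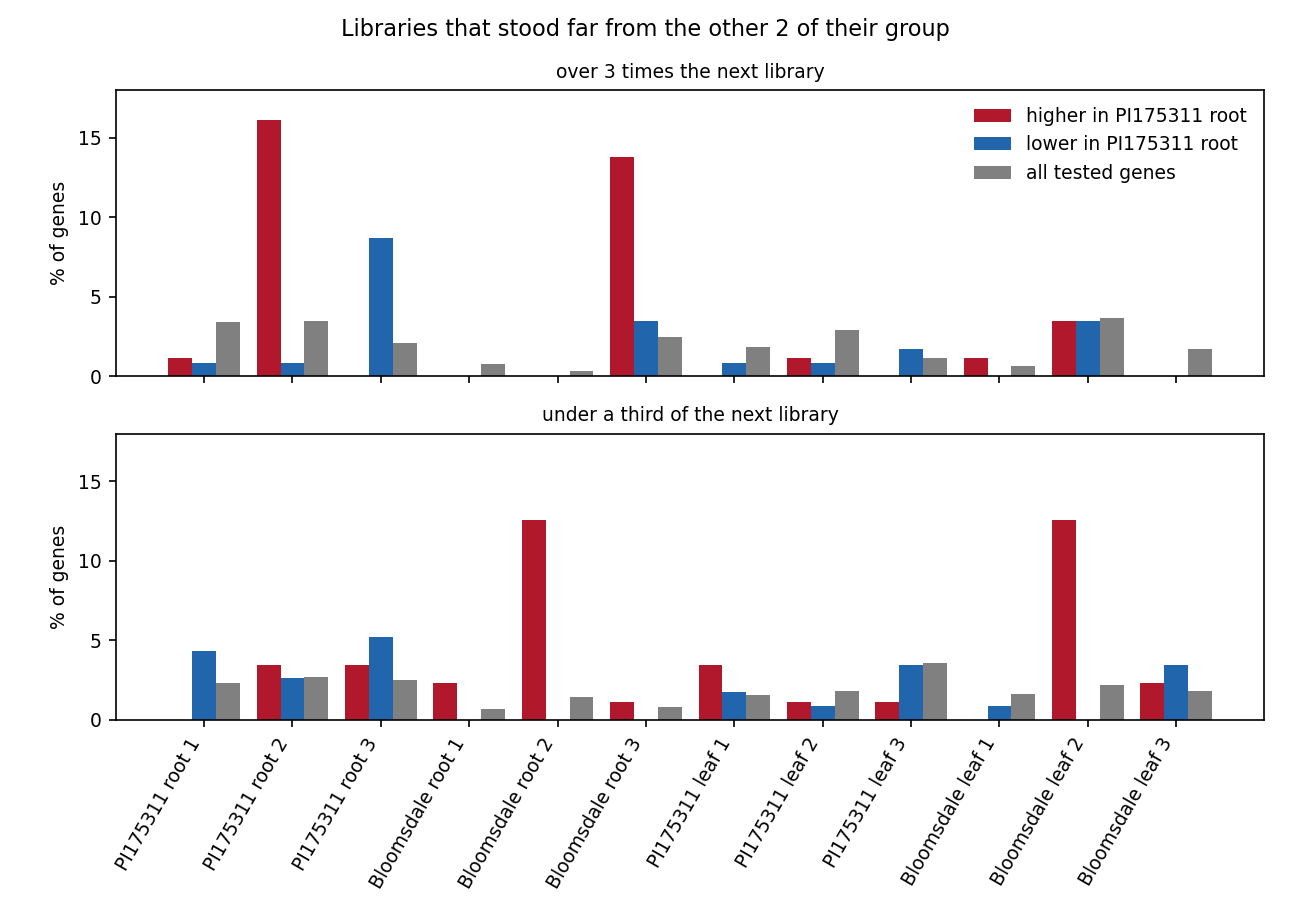
Percent of genes in which a library was over 3 times the next library of its group, or lower than the next by over 3 times, for each of the 12 libraries, in the 87 genes higher in PI175311 roots, the 115 genes lower there and all genes tested. The 87 genes stand out at the high side of PI175311 root replicate 2 (16.1%) and Bloomsdale root replicate 3 (13.8%), and at the low side of Bloomsdale root replicate 2 and Bloomsdale leaf replicate 2 (12.6% each).

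Bloomsdale leaf replicate 2 was the lowest Bloomsdale leaf by over 3 times in 11 of the 87 genes (12.6%), beside 417 of the 18945 genes compared, and in 0 of the 115. In 8 of the 11 the leaf level lay between the root means. Bloomsdale root replicate 3 was the highest Bloomsdale root in 9 of the 11, beside 59.8% of the 87 genes and 33.3% of all genes tested. Replicate 2 alone was the lowest in 5 of the 11, and in 4 replicates 1 and 2 were both at 0. Replicate 2 was the lowest in 58.6% of the 87 genes and in 22.9% of all. In 6 of the 11, Bloomsdale root replicate 3 was over 3 times the next Bloomsdale root, beside 13.8% of the 87 genes and 2.49% of all. These 6 genes, named after their values were seen, were Spo12328, Spo24711, Spo22523, Spo16565, Spo23495 and Spo08910. In Spo12328 Bloomsdale root replicate 3 had only 0.20 FPKM, beside 0 in the other Bloomsdale roots.

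Spo16565 shows this pattern most plainly. It had 11.7, 17.3 and 11.3 FPKM in PI175311 roots, against 0, 0 and 7.33 FPKM in Bloomsdale roots. The leaves held 5.88, 4.43 and 5.18 FPKM in PI175311 and 7.09, 0 and 5.30 FPKM in Bloomsdale. In Bloomsdale the gene was thus at 0 in 2 of the 3 roots and in 1 of the 3 leaves. Bloomsdale root replicate 3, at 7.33 FPKM, still lay below every PI175311 root, and the other Bloomsdale leaves were close to the PI175311 leaves.

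Spo24711 had 12.5, 23.2 and 11.1 FPKM in PI175311 roots, against 0, 0 and 5.07 FPKM in Bloomsdale roots. The leaves held 5.23, 6.12 and 3.97 FPKM in PI175311 and 6.14, 0 and 4.56 FPKM in Bloomsdale. Spo23495 had 21.5, 25.1 and 16.9 FPKM in PI175311 roots and 0, 0.863 and 14.0 FPKM in Bloomsdale roots, with 17.2, 0 and 15.3 FPKM in Bloomsdale leaves. The same libraries were empty or nearly so in each.

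Spo08910 had 5.59, 7.19 and 5.66 FPKM in PI175311 roots, against 0, 0 and 4.44 FPKM in Bloomsdale roots, and 0.1295, 4.16 and 3.62 FPKM in PI175311 leaves, against 2.72, 0 and 3.95 FPKM in Bloomsdale leaves. Spo22523, at a higher level, had 128, 82.7 and 89.5 FPKM in PI175311 roots and 1.61, 0.842 and 44.5 FPKM in Bloomsdale roots. Its Bloomsdale leaves held 21.7, 0.767 and 23.0 FPKM. In Spo08910 the first PI175311 leaf was also close to 0, so that library differences were not limited to Bloomsdale.

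Across genes, the Bloomsdale libraries deviated together in a way that crossed the tissues. Over the 202 genes, the deviations of Bloomsdale root replicate 3 from its group mean had a correlation of -0.539 with those of leaf replicate 2, and of 0.431 and 0.435 with those of leaf replicates 1 and 3. Root replicates 1 and 2 correlated with leaf replicate 2 at 0.395 each. Over all 19549 genes tested the correlation of root replicate 3 with leaf replicate 2 was -0.435. Genes are not independent replicates, and the 3 deviations in a group sum to 0, so these values are descriptions. The labels do not say whether a root and a leaf library came from the same plant.

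The genes behind the set were somewhat short among the 87. Lengths solved from the FPKM had a median of 1096 bases in the 87 genes (210 to 7269), of 1413 bases in the 115 (138 to 7712) and of 1480 bases in all genes tested. The depth behind the lower roots was modest. Over the 3 libraries of the genotype with the lower level, the 87 genes had a median of 352 fragments, with under 30 in 10 genes, and the 115 genes had a median of 347, with under 30 in 13. In those roots a library without any fragment occurred in 10 of the 87 and in 5 of the 115 genes. In the higher roots the medians were 1586 and 1220 fragments for the 87 and the 115 genes.

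Genes of oxalate metabolism that the text of the study names by ID were not among the 202. Of 14 such genes, most of them picked by the study on these libraries, 0 were in the set, which held 202 of all 25495 genes. With so small a share, 0 of 14 is no result about these genes. The study named several of them for a difference in leaves, which the leaf window leaves out. A further gene of this kind, Spo21624, which the study's text gives as a putative oxaloacetate acetylhydrolase (OXAC2), an enzyme that splits oxaloacetate into oxalate and acetate, is not among the 14, since the rule leaves it out by name. Its values met the other conditions of the rule, with means of 8.35 FPKM in PI175311 roots and 2.72 FPKM in Bloomsdale roots (3.07 fold) and of 139.6 FPKM in PI175311 leaves and 101.3 FPKM in Bloomsdale leaves (1.378 fold). Of the 14, 10 were tested in roots, where 1 was called higher and 0 lower in PI175311, beside 2.93% and 9.70% of all genes tested. In leaves 9 were tested, with 5 called higher and 0 lower, beside 4.04% and 6.08% of all genes tested. Limma-voom gave the same counts, and 1 gene in each tissue was lower in PI175311 at an unadjusted p under 0.05. The list of isocitrate lyase, which cleaves isocitrate into glyoxylate and succinate, and of peroxisomal beta-oxidation had 3 genes, with 0 of 3 called in roots and 1 of the 2 tested called higher in leaves. Isocitrate lyase itself (Spo13898) was too low for the test in leaves, with means of 0.576 FPKM in PI175311 and 0.00656 FPKM in Bloomsdale. The study's own RNA-seq comparison reported this gene as upregulated in PI175311 leaves. The 4 genes of glyoxylate transamination and reduction, which turn glyoxylate into glycine or glycolate, had 1 gene tested in each tissue, called in leaves only. The untested Spo04579, Spo00830 and Spo26769 had root means of 13.25, 3.33 and 1.80 FPKM in PI175311, against 0, 0 and 0.0161 FPKM in Bloomsdale. Their leaf means were 8.68, 1.40 and 0.907 FPKM in PI175311 and 0 in Bloomsdale. Of these, only Spo26769 had roots that did not overlap.

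The ascorbate list held 1 ascorbate peroxidase and 2 ascorbate oxidases, enzymes that oxidise ascorbate, itself a precursor of oxalate, and all 3 were called higher in PI175311 leaves. The peroxidase, Spo08328, was the 1 gene called higher in roots, with a ratio of root means of 5.17, and a leaf fold of 10.8 kept it out of the set. Of 3 genes labelled as like oxalate decarboxylase, an enzyme that splits oxalate into formate and carbon dioxide, 2 were tested in each tissue and 0 were called. Of these 2, Spo19759 had root means of 19.4 FPKM in PI175311 against 42.5 FPKM in Bloomsdale (limma adjusted p = 0.0591). Its roots did not overlap, as in 32.3% of all genes tested with PI175311 lower. Spo25084 had 144 against 129.1 FPKM in roots (limma adjusted p = 0.5225). The gene of AAE3 (Spo04424), which activates oxalate to oxalyl-CoA for its breakdown, was called in neither tissue, though its means were higher in PI175311. They were 109.2 against 66.4 FPKM in roots, which did not overlap (limma adjusted p = 0.0823), and 101.1 against 59.8 FPKM in leaves (limma adjusted p = 0.1415). By qPCR the study found it significantly higher in PI175311 leaves and roots, and its RNA-seq showed a trend in that direction.

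At the thresholds, Spo19029 lay just inside the root fold, with means of 4.75 FPKM in PI175311 roots and 14.2 FPKM in Bloomsdale roots (3.00 fold) and of 4.02 and 3.16 FPKM in PI175311 and Bloomsdale leaves. Spo20917 lay just outside, with 1.88 FPKM in PI175311 roots and 5.63 FPKM in Bloomsdale roots (2.99 fold) and 1.22 FPKM in the leaves of each genotype. Spo07450 lay just inside the leaf window, with leaf means of 1.74 FPKM in PI175311 and 1.16 FPKM in Bloomsdale (1.499 fold) and root means of 8.54 and 2.81 FPKM. Spo12906 lay just outside it, with leaf means of 18.1 FPKM in PI175311 and 27.2 FPKM in Bloomsdale (1.501 fold) and root means of 0.250 and 1.12 FPKM. Each pair had nearly the same fold on either side of its threshold, at different levels. When each of the 12 libraries was left out in turn, 12 of the 87 and 26 of the 115 genes met the rule every time, and 54 and 72 met it in at least 10 of the 12 cases.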

How the data were processed

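The authors sequenced 12 libraries (4 groups of 3 libraries) and deposited a table of FPKM per gene and library, never negative and not whole, with no names or positions. The study's methods name the SpinachBase genome and gene models, TopHat, Bowtie, HTSeq and FPKM from gene length and mapped reads, and fastp, featureCounts, DESeq2 and HISAT2 2.1.0 stand in the processing notes that the submitters gave. Which of these pipelines made the deposited FPKM, and the version of the genome, are not given in the sources used here. Columns were matched to samples by title. Library totals and whole fragments were solved from the FPKM for all 23588 genes above 0 in any library (lengths whole to within 0.01 bases).

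The set was found with the rule on FPKM as deposited. Genotypes were compared within each tissue, and tissues and their interaction in 1 fit of all 12 libraries, with limma 3.58.1 (R 4.3.3) on log2(FPKM + 0.1), with trend and robust options, over genes of at least 1 FPKM in at least 3 libraries, and Benjamini-Hochberg adjustment over all tested genes at 0.05. Fold changes on this scale understate those of low genes. Tested on simulated data with 17895 genes, the root fit called 32% of the genes given a log2 change of 1, 60% of those given 2 and 90% of those given 4. The leaf fit called 20% of those given 1 and 66% of those given 2. Only genes of at least 1 FPKM in every library of the fit were changed. These shares therefore do not cover members with a library under 1 FPKM. Python 3.11.15, numpy 2.4.6, pandas 2.3.3 and matplotlib 3.10.9 served for the rest.

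Root libraries of the 2 genotypes with the same replicate number deviated together (correlations across genes of 0.247, 0.216 and 0.273). The leaf values were 0.0559, -0.203 and -0.198. Libraries of different numbers were not compared between the genotypes, so these values do not show a pairing, and the labels state none. The fits reported did not pair the libraries, and the replicate number served as a block only in an alternative fit. The members and gene lists were chosen with earlier results of these data known. Named genes were members whose ID the study's text prints (0), the 2 with the largest root fold in each direction, the 2 highest and 2 lowest in root minus leaf among those called in each genotype, and those beside a threshold. Others are said to be chosen after their values were seen. Alternatives were other rule thresholds, pseudocounts and filters, median-of-ratios scaling, quantile normalization, limma-voom on fragments, a replicate block and each library left out, and, added after the data were seen, medians in place of means.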

Additional observations from a re-analysis of the deposited data

Results flagged for a closer look

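For 8 of the named genes, the difference between PI175311 and Bloomsdale in roots differed from that in leaves with adjusted p under 0.05 in the limma fit over all 12 libraries. The choice of the genes by level leaves and unequal roots fixes this direction, so the values only describe them. The log2 difference of the differences (root minus leaf) was 6.98 ± 1.28 (SE) for Spo12328, 6.19 ± 1.096 for Spo14730, 6.16 ± 0.72 for Spo18452 and 3.14 ± 0.52 for Spo13575, which were higher in PI175311 roots. It was -4.96 ± 0.56 for Spo26039, -4.64 ± 0.67 for Spo23405, -4.22 ± 0.46 for Spo14387 and -3.81 ± 0.49 for Spo00945, which were lower in PI175311 roots. Adjusted p-values lay between 0.00221 for Spo14387 and 0.0233 for Spo12328.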

How the results depend on the processing

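The size of the set followed the thresholds and the scaling. With 87 genes higher and 115 lower in PI175311 roots as reported, median-of-ratios scaling gave 122 and 68, a root fold of at least 2 gave 191 and 390, a fold of at least 4 gave 50 and 50, leaf means within 25% of each other gave 46 and 58, a window of 2 fold gave 128 and 181, a minimum of 5 FPKM gave 48 and 39, and medians in place of means (chosen after the data were seen) gave 74 and 119, of which 50 and 76 were in the reported sets. Leaving out 1 library gave 72 to 148 higher genes, with the highest count without PI175311 root replicate 3, and 96 to 152 lower genes.

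Median-of-ratios scaling moved the leaf below both roots to 8 and near the lower root to 6 of the higher genes, and above both to 33 of the lower genes. A window of 25% for these classes gave 8 lower genes near the lower root, 31 between and 14 near the higher root. A mean of at least 5 FPKM left 49 lower genes called in roots, and 9 higher and 14 lower genes called for the interaction, where fewer genes were tested, and limma-voom called 5 higher genes for the interaction. Root above leaf was called in PI175311 for 14 lower genes under both median-of-ratios scaling and quantile normalization, and in Bloomsdale for 4 and 5 higher genes. For these changes the cause was not tested.

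Leaving out 1 library moved the calls among the 87 genes to 3 to 34 in roots and to 1 to 16 for the interaction, and among the 115 genes to 11 to 81 in roots and to 8 to 32 for the interaction. The interaction calls were lowest, at 1 and 8, without Bloomsdale root replicate 2. They were 3 and 8 without Bloomsdale root replicate 1 or Bloomsdale leaf replicate 1, 6 and 10 without Bloomsdale leaf replicate 3, 5 and 14 without PI175311 leaf replicate 1, and 3 and 14 without PI175311 leaf replicate 3. Leaf calls ran between 0 and 1. With the replicate number as a block, roots were called for 49 of the 87 and 85 of the 115 genes, and the interaction for 10 and 20, and the block moved no count of calls by over 1.5 times. Among the values of single named genes, 284 kept their side of the threshold, 13 lost it and 3 gained it, and none changed sign.

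Depth limits the genes with few fragments in the lower roots, where a fold of means rests on a handful of fragments, and 3 libraries a group limit all others.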
